A study of Mus musculus with 6 samples.

Results

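The genes described here are the nuclear genes of the mitochondrial respiratory chain and ATP synthase, together with the assembly factors that carry the same gene name prefixes. They were taken by name: every named gene beginning with Nduf, Uqcr or Atp5, or with Cox and a digit (Cox4i2 left out), plus Sdha, Sdhb, Sdhc and Sdhd. This gave 109 of the 40842 named genes. Of these, 102 reached a mean of at least 1 FPKM (fragments per kilobase of transcript scaled to the mapped fragments, a level per length) over the 6 libraries and were tested. The 7 others were Ndufa11b, Ndufab1-ps, Ndufb4c, Ndufs6b, Cox7c-ps1, Cox7b2 and Cox8c, mostly gene copies and testis-type isoforms, and Cox8c was listed at 0 in every library. By role, the tested genes held 77 structural subunits, 17 assembly factors, 5 tissue isoforms of complex IV, 2 gene copies and Cox7a2l. The last is listed as an assembly factor of supercomplexes, in which respiratory complexes are joined.

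The respiratory chain lies in the inner mitochondrial membrane. Complex I takes electrons from NADH and complex II from succinate, complex III passes them on to cytochrome c, complex IV hands them to oxygen, and complex V makes ATP from the proton gradient so formed. Most subunits are encoded in the nucleus and a few in the mitochondrial genome. Assembly factors are proteins that insert cofactors or hold part-built complexes without staying in the finished enzyme.

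RNA was measured in whole lung of wild-type female C57BL/6N mice: 3 control libraries and 3 labelled as irradiated with 20 Gy of 9 MeV electrons in a single dose, all labelled 100 days. All 6 libraries were poly(A)-selected RNA. The labels name neither the part of the body exposed nor whether each library came from a separate mouse, so a p-value here reflects only how far these libraries vary, and that variation may be technical.

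The most frequent ratio of coverage to FPKM was 5.10 to 10.4 per library, highest in irradiated 2. Read as an aligned depth in Gb, it would make irradiated 2 the deepest, but that reading is an assumption. The summed FPKM of 5 lung markers was 47980 to 60554 in controls and 27281 to 37016 in irradiated libraries. Control 2 and irradiated 2 stood apart in tissue content. Control 2 had the highest summed FPKM of heart muscle markers, 577, against 77.7 and 96.4 in the other controls and 206, 20.8 and 264 in irradiated 1, 2 and 3, and adipocyte markers likewise, 245 against 14.3 to 141 in the 5 others. Irradiated 2 was lowest in both sets and highest in neutrophil markers, 4758 FPKM in sum against 74.8 to 1398 elsewhere. In bulk tissue, fewer cells of a type and less RNA per cell cannot be told apart.

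Nearly all members lay a little lower in irradiated lung, but the shift was small, and a single gene passed the test. With limma on log2(FPKM + 1), 97 of the 102 tested members had a negative log2 difference (irradiated minus control), against 55.8% of all 13908 genes tested. Their median difference was −0.25, against −0.03 over all genes tested. At an adjusted p under 0.05, 1 member was called (Cox20, an assembly factor of complex IV, lower), against 0.18% of all genes tested in either direction and 0.115% called lower. None was called higher, against 0.0647%. At an unadjusted p under 0.05, 30 members were lower, against 10.3% of all genes, and 0 were higher, against 7.41%. All irradiated libraries lay below all controls for 31 members (30.4%), against 14.6% of all genes tested. The reverse held for 0 members, against 9.91%. With every library scaled to a common sum, which moved the median of all genes to 0.08, the count changed. All irradiated libraries then lay below all controls for 8 of 102 members, near the 6.52% of all genes.

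**Figure D1:**
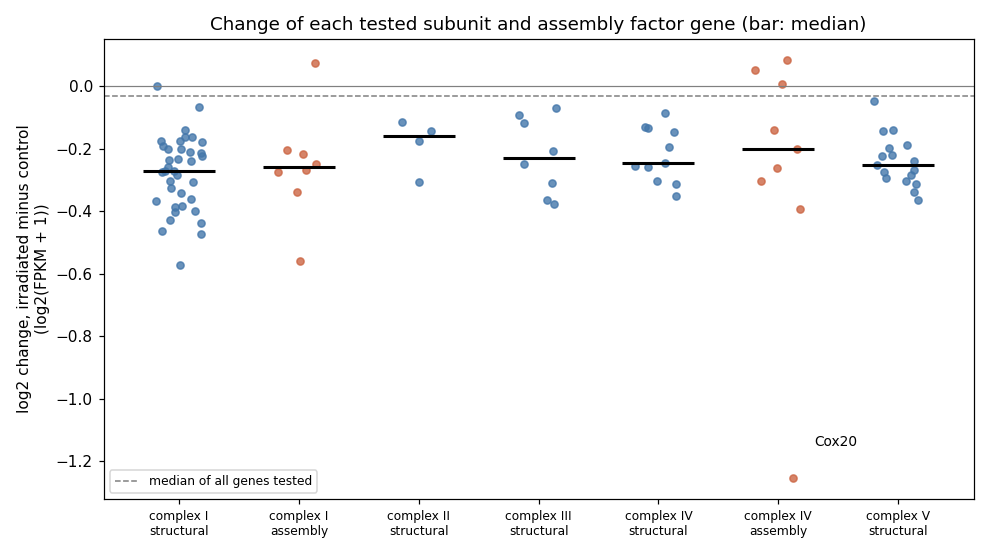
Log2 difference (irradiated minus control, log2(FPKM + 1) scale) of each tested structural subunit (blue) and assembly factor (orange), by complex; black bars are medians and the dashed line is the median of all genes tested, −0.03. Group medians lie between −0.16 and −0.27, and Cox20 sits apart at −1.25.

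Complex I is the largest of the enzymes, with 37 structural subunits tested. 36 of them had a negative difference, with a median of −0.27, and for 16 all irradiated libraries lay below all controls, against 14.6% of all genes tested. None passed the test, and 15 had an unadjusted p under 0.05 on the lower side, against 10.3% of all genes. The exception was Ndufa10, an accessory subunit of the membrane arm, at 0.00 (adjusted p = 0.999). The 7 nuclear core subunits, which carry the redox centres, had a median of −0.20, and 1 of them (14.3%) had no overlap, near the 14.6% of all genes. The 30 accessory subunits had a median of −0.28, and 15 had no overlap. That contrast between core and accessory subunits is a description of the lists and was not tested.

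Ndufa5, a subunit of the matrix arm, had 33.5, 49.1 and 46.9 FPKM in controls 1, 2 and 3 and 27.9, 26.6 and 30.7 in irradiated 1, 2 and 3. Control 1 lay nearest the irradiated libraries, and the groups did not overlap. Its group means were 43.2 ± 8.41 and 28.4 ± 2.08 (SD, n = 3 each), a log2 difference of −0.57 ± 0.15 (SE, adjusted p = 0.147), the largest among structural subunits.

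Ndufb3, a small subunit of the membrane arm, had 39.4, 49.1 and 44.8 FPKM in controls and 34.6, 29.6 and 33.3 in irradiated libraries. Every irradiated value was below every control, by −0.44 ± 0.11 on the log2 scale (adjusted p = 0.132). For Ndufc1, also of the membrane arm, the values were 29.6, 36.9 and 33.4 against 26.5, 23.4 and 25.0 FPKM. Again the groups were separate, with a difference of −0.40 ± 0.11 (adjusted p = 0.143). Ndufa7, the most abundant structural subunit of complex I at a mean of 70.0 FPKM over the 6 libraries, had 65.3, 85.5 and 79.7 against 59.6, 63.2 and 66.8 FPKM. Here irradiated 3 exceeded control 1, and the difference was −0.27 (adjusted p = 0.306).

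The 8 Ndufaf assembly factors of complex I were expressed at lower levels, with means from 2.10 FPKM (Ndufaf5) to 14.6 FPKM (Ndufaf8), against a median of 35.8 FPKM for the structural subunits. Their differences were much like those of the subunits they serve, with a median of −0.26. Of the 8, 7 were negative, against 55.8% of all genes, and 4 had no overlap, against 14.6%. Ndufaf8, the small partner of Ndufaf5, had 15.9, 20.6 and 16.3 FPKM in controls and 10.3, 11.1 and 13.4 in irradiated libraries. The groups were separate, and the difference of −0.56 ± 0.14 had an adjusted p of 0.125. Ndufaf3, which acts in building the matrix arm, was tightly grouped in controls at 9.30, 9.44 and 9.31 FPKM and lay at 7.54, 6.97 and 8.19 FPKM after irradiation (−0.28 ± 0.09, adjusted p = 0.202). Ndufaf7, a mitochondrial methyltransferase, had 10.0, 8.38 and 8.18 against 7.13, 6.31 and 8.15 FPKM. Irradiated 3 came within a narrow margin of control 3, and the difference was −0.27 (adjusted p = 0.314). Ndufaf5, a hydroxylase acting on the core subunit Ndufs7, was the exception with 0.07 (adjusted p = 0.816).

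Complex II, the succinate dehydrogenase of the citric acid cycle, has 4 subunits, all nuclear. All 4 had negative differences (Sdha a positive one, 0.01, after scaling to a common sum), with a median of −0.16, and none passed the test. Sdhc, a membrane anchor, had 46.4, 60.5 and 46.5 FPKM in controls and 42.1, 36.2 and 44.6 in irradiated libraries. Control 2 was far above the other controls, the groups just failed to overlap, and the difference was −0.31 (adjusted p = 0.303). Sdha, which holds the flavin, had 66.0, 70.7 and 64.7 against 62.2, 52.7 and 72.0 FPKM (−0.12, adjusted p = 0.673). Irradiated 3 was the highest of all 6 libraries for this gene. The iron-sulphur subunit Sdhb (−0.18, adjusted p = 0.460) and the anchor Sdhd (−0.14, adjusted p = 0.637) also overlapped between groups.

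Complex III was represented by 8 structural subunits, all with negative differences (median −0.23), although only 5 of 8 were negative after scaling to a common sum. The groups did not overlap for 1 of 8 (12.5%), near the 14.6% of all genes. That gene was Uqcrh, the hinge protein near cytochrome c1 and the most abundant of the set. Its values were 95.0, 132 and 114 FPKM in controls and 91.8, 75.5 and 93.9 in irradiated libraries. Irradiated 3 and control 1 were nearly level, and the difference was −0.38 (adjusted p = 0.261). Uqcrb, a small accessory subunit, had 80.04, 109 and 104 against 80.9, 73.2 and 71.4 FPKM (−0.36, adjusted p = 0.241). Control 1 lay within the irradiated range. Uqcr11, another small subunit, had a difference of −0.31 (adjusted p = 0.434).

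Complex IV, cytochrome c oxidase, had 11 structural subunits tested (Ndufa4, a subunit of this enzyme despite its name, among them). All 11 had negative differences, against 55.8% of all genes tested, with a median of −0.25. The groups did not overlap for 2 of 11 (18.2%), near the 14.6% of all genes. Ndufa4 had 131, 166 and 141 FPKM in controls and 126, 100.0 and 116 in irradiated libraries. Control 2 and irradiated 2 were the extremes, and the difference was −0.35 (adjusted p = 0.243). Cox5a, a matrix-facing subunit, had 58.3, 71.8 and 59.8 against 56.3, 45.4 and 51.6 FPKM (−0.30, adjusted p = 0.267). Cox6b1, on the intermembrane side, had 91.7, 119 and 115 against 92.8, 82.7 and 85.1 FPKM (−0.31, adjusted p = 0.260). Its control 1 lay inside the irradiated range. Cox4i1, the most abundant subunit of the complex, had 179, 228 and 195 against 160, 153 and 190 FPKM, with overlap and a difference of −0.25 (adjusted p = 0.373).

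Of the other complex IV genes, Cox7a2l, listed as a supercomplex assembly factor, had 91.1, 103 and 94.5 FPKM in controls and 77.8, 69.6 and 101 in irradiated libraries. Irradiated 3 was among the controls (−0.23, adjusted p = 0.452). Ndufa4l2, a paralogue of Ndufa4, had 12.2, 12.8 and 15.6 against 8.96, 13.4 and 11.1 FPKM (−0.27, adjusted p = 0.420), also with overlap.

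Complex V, the ATP synthase, had 17 structural subunits. All 17 had negative differences (median −0.25), against 55.8% of all genes, although Atp5b turned to 0.08 after scaling to a common sum. The groups did not overlap for 4 of 17 (23.5%), against 14.6% of all genes. Atp5j, coupling factor 6 of the peripheral stalk, had 91.6, 108 and 94.7 FPKM in controls and 80.5, 78.8 and 81.4 in irradiated libraries. The irradiated values were close together and all lower, with a difference of −0.28 ± 0.10 (adjusted p = 0.208). Atp5e, the epsilon subunit of the rotor stalk, had 95.6, 118 and 106 against 88.4, 89.2 and 85.5 FPKM (−0.28, adjusted p = 0.242). Atp5j2, a small membrane subunit, had 104, 147 and 125 against 102, 91.3 and 95.2 FPKM (−0.36, adjusted p = 0.242). Both were separate between groups. Atp5b, the catalytic beta subunit and the most abundant structural member at a mean of 214 FPKM, was nearly level: 202, 247 and 204 against 226, 184 and 222 FPKM. Irradiated 1 and 3 exceeded controls 1 and 3, and the difference was −0.05 (adjusted p = 0.888).

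The shift moved with particular libraries. Centred on the control mean, the median structural subunit stood at −0.17, 0.19 and −0.00 in controls 1, 2 and 3 and at −0.20, −0.38 and −0.20 in irradiated 1, 2 and 3. Control 1 therefore lay almost at the level of irradiated 1 and 3. Control 2 was the highest library for 67 of the 77 structural subunits (82 of all 102 members), against 24.1% of all genes tested. Irradiated 2 was the lowest for 50 of the 77 (62 of 102), against 36.9%. These are the libraries that stood at the extremes of heart muscle and adipocyte markers. Without both of them, 74 of 102 members had a negative difference (against 44.3% of all genes) and the median was −0.12 (against 0.03). Irradiated 1 and 3 were both below controls 1 and 3 for 34 members (33.3%), against 18.9% of all genes. The part of tissue content in the shift was not tested beyond these values.

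**Figure D2:**
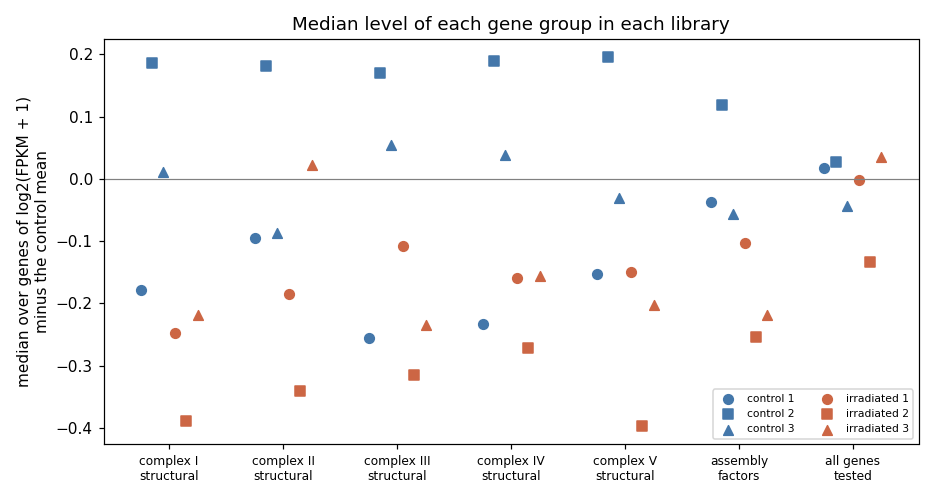
Median over the genes of each group of log2(FPKM + 1) minus the control mean, for each library; blue marks are controls, orange marks irradiated libraries, and the shape gives the replicate number. Control 2 is the highest mark in every group of structural subunits and irradiated 2 the lowest, while the medians of all genes tested stay between −0.13 and 0.04.

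Library scaling moved the median differences of the members and of all genes together. Summed over all named genes, FPKM reached 333368, 350820 and 321039 in controls and 306697, 298352 and 312652 in irradiated libraries. Such a sum leans on the most abundant genes. The 5 lung markers alone held 47980 to 60554 FPKM in controls and 27281 to 37016 in irradiated libraries. After every library was set to a common sum, the median of all genes moved from −0.03 to 0.08. The members' median then was −0.12, which lay 0.20 under that of all genes (0.22 under it without the scaling), and 89 of 102 were negative against 35.8% of all genes. After this scaling all irradiated libraries lay below all controls for 8 of 102 members, near the 6.52% of all genes. Without it, they did for 31 members and 14.6% of all genes. Among structural subunits the count was 5 of 77, also near the share of all genes (24 of 77 without the scaling). By complex, 35 of 37 structural subunits of complex I were then negative, 3 of 4 of complex II, 5 of 8 of complex III, 9 of 11 of complex IV and 16 of 17 of complex V. With median-ratio scaling, 97 members were negative against 48.6% of all genes, and the median was −0.21 (0.01 over all genes). The number of members without overlap is not given under that scaling.

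Gene length was a further feature the choice of members did not use. Respiratory chain subunits are small proteins, and 33 of the 76 structural subunits with a length had a longest protein-coding transcript under 800 nt in GENCODE M21. Their median difference was −0.28, against −0.22 for the 43 longer ones. Over all 335 tested genes with a transcript under 800 nt the median was −0.21, and over the longer genes −0.03. Spearman's rho of length with the log2 difference was 0.29 over the 76 subunits and 0.31 over 12698 genes, across genes that share the same 6 libraries. The part of length or RNA quality in the members' shift was not tested.

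Most assembly factors of complex IV had a negative difference, and the positive ones were small beside their errors. Of 9, 6 had a negative difference and 3 a positive one, against 55.8% negative over all genes, and 3 had no overlap between groups, against 14.6%. The positive ones were Cox10 (0.01 ± 0.12), Cox11 (0.05 ± 0.11) and Cox15 (0.08 ± 0.10), each with a mean under 5 FPKM. At a mean of at least 5 FPKM, 10 of 10 assembly factors of complexes I and IV were negative, against 57.6% of all genes. The median was −0.20 with Cox20 and −0.17 without it, against −0.25 for the structural subunits of the complex. A difference of this size between structural and assembly medians (−0.04) changed sign under other settings.

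The 5 Cox-named factors that make haem A or handle copper for this enzyme had 2 negative and 3 positive differences and a median of 0.01, although Cox10 and Cox11 changed sign when single libraries were left out. Cox10, which farnesylates haem, had 3.19, 3.22 and 2.95 FPKM in controls and 2.83, 2.98 and 3.63 in irradiated libraries (0.01, adjusted p = 0.986). Cox15, which completes haem A, had 4.78, 5.04 and 4.57 against 5.39, 4.71 and 5.34 FPKM (0.08, adjusted p = 0.702). For both, the groups overlapped. Cox11, which delivers copper to the Cox1 subunit, had 4.54, 4.75 and 4.47 against 4.96, 5.27 and 4.20 FPKM (0.05, adjusted p = 0.842). The copper chaperone Cox17 had 49.97, 67.0 and 69.8 against 43.3, 54.9 and 42.8 FPKM (−0.39, adjusted p = 0.269). Irradiated 2 exceeded control 1, so this larger difference still overlapped. Cox19, a related small protein of the intermembrane space, had 14.0, 15.0 and 14.2 against 13.3, 12.0 and 11.9 FPKM, a tight and separate pattern of −0.20 (adjusted p = 0.278).

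The copper factors with other names that were looked up had negative differences, none past the test: Sco2 −0.53 (adjusted p = 0.327), Coa6 −0.20 (adjusted p = 0.484) and Sco1 −0.09 (adjusted p = 0.718). These genes were chosen after their values were seen. Of the 17 tested complex IV factors outside the prefixes, 16 were negative and 1 positive, and the highest difference was 0.27.

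Among factors that guide the mitochondrially encoded subunits, Cox14, which acts with newly made Cox1, had 34.0, 45.5 and 36.0 FPKM in controls and 30.5, 32.4 and 32.2 in irradiated libraries. It did not overlap (−0.26, adjusted p = 0.316). Cox18, the insertase for the tail of the Cox2 subunit, had 4.72, 3.93 and 3.44 against 3.81, 3.51 and 3.30 FPKM (−0.14, adjusted p = 0.608). Cox16, another Cox2 factor, had 14.6, 17.9 and 15.5 against 14.8, 11.2 and 12.4 FPKM (−0.30, adjusted p = 0.280). Its whole span lies inside the readthrough gene Gm20498 on the same strand, so reads could be shared between them.

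Cox20, a membrane chaperone that holds the newly made Cox2 subunit while its copper centre is formed, was the sole member called. It lies on chromosome 1 at 178146379 to 178150258 (GRCm39, plus strand). Its FPKM was 35.3, 44.6 and 41.1 in controls and 18.2, 14.1 and 16.7 in irradiated libraries. The groups were far apart, with means of 40.3 ± 4.67 and 16.3 ± 2.05 FPKM (SD, n = 3 each). By FPKM it fell by 1.25 ± 0.13 on the log2 scale (SE, limma adjusted p = 0.0298), or to 0.405 of the control mean. The call did not hold without control 1, control 2, control 3 or irradiated 2, with adjusted p-values of 0.203, 0.121, 0.148 and 0.0819 and log2 differences of −1.34, −1.18, −1.24 and −1.16.

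The deposited coverage of the same gene did not show a fall of that size. Each table gives a mean read coverage beside the FPKM. For most genes with a single RefSeq transcript (82.9% of 3825) coverage divided by FPKM is a constant of the library, to within 0.5%, while this holds for 16.6% of 2281 genes with 2 transcripts. Divided by that constant, the coverage is in units of FPKM and is called the coverage level here. The coverage level of Cox20 was 3.02, 3.73 and 3.49 in controls and 2.95, 2.38 and 3.04 in irradiated libraries. Irradiated 3 was above control 1, so the groups overlapped. The means were 3.41 ± 0.362 and 2.79 ± 0.360 (SD, n = 3 each), a ratio of 0.817, and the difference of −0.22 ± 0.11 did not pass the test (adjusted p = 0.359).

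The quotient of the coverage level over FPKM was itself tightly grouped. It was 0.0855, 0.0837 and 0.0850 in controls and 0.162, 0.168 and 0.182 in irradiated libraries, with no overlap. On the log2(value + 1) scale, the FPKM difference minus the coverage difference was −1.03 for Cox20, the widest gap of all 13908 genes tested. As a plain ratio of group means, with no pseudocount, the gap was −1.01, and 11 genes (Cox20 included) had one at least as wide. Among the other members, the widest gap on the log2(value + 1) scale was 0.16 (Ndufv3), and 56 of 102 members had a quotient within 0.5% of 1 in every library. By the ratio of mean coverage levels, 38 members lay lower than Cox20. Of the 25 genes called by FPKM in the whole table, 14 were also called by coverage level, where 15 were called in all (0.108%), 0.0575% of all genes on the lower side, and no member was among them (27 members had an unadjusted p under 0.05 by limma). All 25 had the same sign by both measures. No transcript-level values were analysed here, and whether the FPKM difference reflects less Cox20 RNA or a different mix of its transcripts was not tested.

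**Figure D3:**
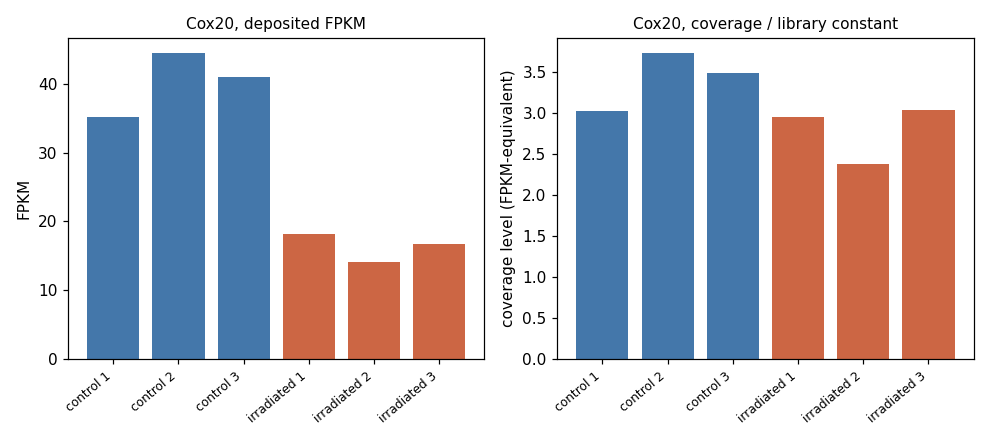
Cox20 in each library by deposited FPKM (left) and by coverage level, which is coverage divided by the library constant (right); bars are single libraries, blue controls and orange irradiated. FPKM separates the groups (35.3 to 44.6 against 14.1 to 18.2), whereas the coverage levels overlap (3.02 to 3.73 against 2.38 to 3.04).

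**Figure D4:**
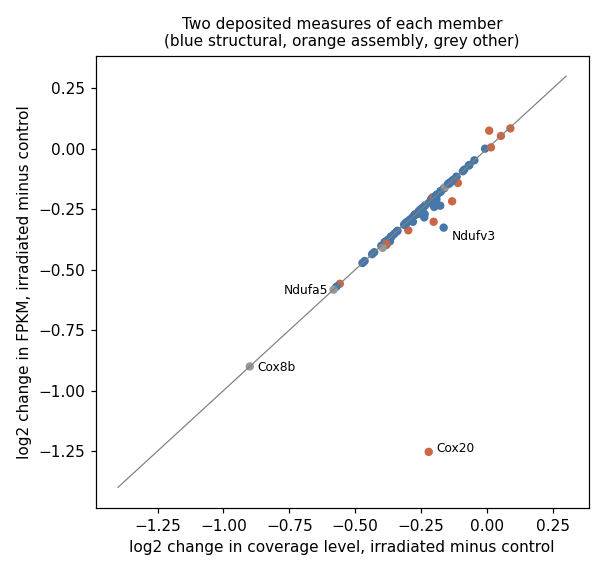
Log2 difference of each tested member in FPKM against that in coverage level, both as log2(value + 1), with the line of equality; blue marks structural subunits, orange assembly factors, grey the others. Members lie on or near the line, Ndufv3 is 0.16 off it, and Cox20 lies 1.03 below it.

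Cox20 also shares 1586 of its 3880 bases with Hnrnpu, an RNA-binding protein gene on the opposite strand. Whether the authors' counting used strand is not given in the sources used here, so reads in the shared stretch cannot be assigned with certainty. Hnrnpu had 67.5, 65.8 and 64.3 FPKM in controls and 54.5, 50.3 and 53.2 in irradiated libraries. Its groups were separate too, with a difference of −0.32 ± 0.08 (adjusted p = 0.132). An unnamed assembled entry overlaps Cox20 on its own strand and was not used. That entry had 35.3, 47.8 and 41.1 FPKM in controls and 17.7, 13.9 and 16.9 in irradiated libraries. Of the members, 17 overlap another named gene with a mean of at least 1 FPKM. Among them are Atp5j, which shares 3159 bases with Gabpa on the other strand, and Uqcrh, which shares 1721 with Gm12854.

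The muscle and fat isoforms of complex IV subunits replace their ubiquitous partners in heart, skeletal muscle or brown fat. Cox6a2 had 5.76, 22.6 and 10.7 FPKM in controls and 9.76, 2.94 and 12.1 in irradiated libraries. Cox7a1 had 1.44, 8.88 and 2.35 against 3.22, 1.41 and 2.39 FPKM. Cox8b had 1.496, 7.68 and 3.46 against 1.81, 0.580 and 2.34 FPKM. For all 3, control 2 was the highest library and irradiated 2 the lowest, as for the summed heart muscle markers. Their differences of −0.58 ± 0.61, −0.41 ± 0.52 and −0.90 ± 0.49 had wide errors and adjusted p-values of 0.666, 0.726 and 0.391. Without control 2 and irradiated 2, the differences of Cox6a2, Cox7a1 and Cox8b were 0.42, 0.40 and −0.12.

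The ubiquitous partners varied far less between libraries. Cox6a1 had 124, 155 and 162 FPKM in controls and 127, 137 and 131 in irradiated libraries (−0.15, adjusted p = 0.584). Cox7a2 had 49.4, 71.8 and 53.3 against 54.3, 40.2 and 51.4 FPKM (−0.25, adjusted p = 0.498). Cox8a had 126, 137 and 142 against 125, 117 and 128 FPKM (−0.13, adjusted p = 0.521). All 3 overlapped between groups.

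**Figure D5:**
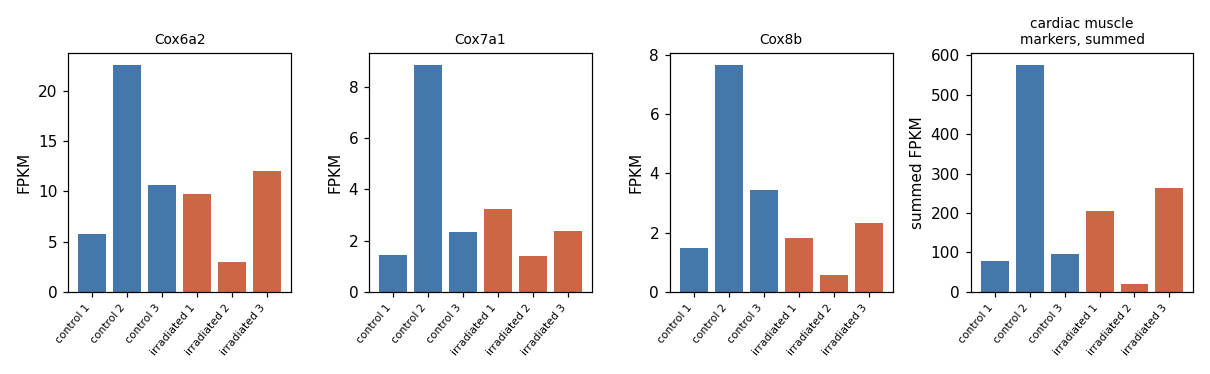
FPKM of Cox6a2, Cox7a1 and Cox8b and the summed FPKM of the heart muscle markers in each library; bars are single libraries, blue controls and orange irradiated. Control 2 is highest (22.6, 8.88, 7.68 and 577 FPKM) and irradiated 2 lowest (2.94, 1.41, 0.580 and 20.8 FPKM) in each panel.

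Other genes of the pathway, outside the name prefixes, also had mostly negative differences. Of 40 tested assembly factors with other names, 36 had a negative difference, 12 had no overlap (30.0%, against 14.6% of all genes), and the median was −0.16. After scaling to a common sum, 24 of 40 were negative and the median was −0.05 (against 0.08 over all genes), and with median-ratio scaling 31 of 40. None passed the test, and 9 of 40 had an unadjusted p under 0.05 on the lower side, against 10.3% of all genes. By complex, the medians were −0.06 for the 10 factors of complex I, −0.29 for the 4 of complex II, −0.30 for the 5 of complex III, −0.13 for the 17 of complex IV and −0.17 for the 4 of complex V. The complex I factors turned to a median of 0.05 after scaling to a common sum, with 4 of 10 negative instead of 9 of 10. Coa3, which acts with Cox14 on newly made Cox1, had 36.4, 43.8 and 39.3 FPKM in controls and 32.6, 29.6 and 29.1 in irradiated libraries. The groups were separate (−0.37, adjusted p = 0.143). The complex III factors Uqcc3 and Uqcc2 had differences of −0.53 (adjusted p = 0.182) and −0.37 (adjusted p = 0.214). Fmc1, a complex V factor, had −0.44 (adjusted p = 0.164), and Sdhaf4, which protects Sdha during assembly, −0.40 (adjusted p = 0.209).

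The median gene of mitochondrial biogenesis and mass had the difference of the median gene overall. Of 16 tested, 10 had a negative difference, none had all irradiated libraries below all controls, and the median was −0.03 (0.09, with 3 of 16 negative, after scaling to a common sum, where all genes had 0.08). Tfam, which packages and transcribes the mitochondrial genome, had −0.19 (adjusted p = 0.438), and the matrix chaperone Hspd1 −0.18 (adjusted p = 0.452). The 5 electron carriers and related genes had a median of −0.13, and Etfb, of the electron transfer flavoprotein, had −0.30 (adjusted p = 0.359). Of the mitochondrially encoded subunits, values for 2 complex I genes were used. ND6 had 681, 872 and 850 FPKM in controls and 531, 609 and 682 in irradiated libraries (−0.40, adjusted p = 0.249). Irradiated 3 and control 1 were level. The entry named ND1 spans positions 2751 to 15288 of the mitochondrial genome, far beyond a single gene, and had −0.21 (adjusted p = 0.548). Whether reads are shared between that entry and ND6 was not checked, so neither value is a clean level of its gene.

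Some cell type markers differed between the groups and others followed single libraries. The summed FPKM of the 6 alveolar type 2 markers was 18037 to 20000 in controls and 11418 to 12428 in irradiated libraries. For 4 of the 6 the groups had no overlap, against 14.6% of all genes, and all 6 had a negative difference (median −0.29). All 7 neutrophil markers and all 5 tested red cell markers had a positive one (medians 2.53 and 0.76). In each list 1 marker was above all controls in every irradiated library, against 9.91% of all genes. The red cell markers were high in irradiated 2 alone, with a summed FPKM of 6255 against 1442 and 1609.5 in irradiated 1 and 3 and 1347 to 1709 in controls. Pericyte (−0.13) and ciliated cell markers (−0.04) had smaller medians. Of the heart muscle markers 7 of 8 tested were negative (median −0.55), of the adipocyte markers 3 of 6 (0.01) and of the skeletal muscle markers 2 of 2 (−0.37), none without overlap. None of the marker genes of these lists passed the test at an adjusted p under 0.05. Their part in the shift of the respiratory chain genes was not tested.

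The promoters of respiratory chain genes are known for sites of NRF1, of ETS factors such as GABP and of YY1, so the RefSeq promoter windows of the members (GRCm38.p6, 250 bases before to 50 after the start) were searched on both strands for exact matches. Windows were matched by symbol for 85 of the 109 members. The NRF1 motif (GCGCA, any base, GCGC) was in the promoters of 22.4% of these members, against 10.8% of the 10613 tested genes with a promoter and 4.60% of all 32851 promoters. For the ETS motif CCGGAAG the shares were 28.2%, 19.0% and 8.86%. The YY1 motif AAGATGGC was in 15.3%, 4.91% and 2.75%, and the oestrogen-related receptor motif TCAAGGTCA in 2.35%, 0.311% and 0.423%. The shares of members and of tested genes are per gene, over all its listed starts, and those of all promoters are per listed start. The end of the ETS motif is the start of the YY1 motif (AAG), but matches of the pair shared bases in 0 members and in 1 of all promoters. A match is a description of the sequence and no evidence of binding.

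Among structural subunits, 17 of 65 held the NRF1 motif, 17 the ETS motif, 10 the YY1 motif and 2 the oestrogen-related receptor motif. Of the 14 assembly factors with a promoter, 7 held the ETS motif, 3 the YY1 motif, 2 the NRF1 motif and 0 the receptor motif. Over all tested genes with a promoter the shares were 10.8% for NRF1, 19.0% for ETS, 4.91% for YY1 and 0.311% for the receptor motif. The motifs did not sort the size of the expression difference to a large degree. The median log2 difference of structural subunits with and without a match was −0.22 and −0.26 for NRF1, −0.28 and −0.25 for ETS, and −0.35 and −0.24 for YY1. These medians are descriptions and were not tested.

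The following windows, the 150 bases upstream of an annotated start, show these motifs in the called gene and in subunits from complexes I and V that lay lower in all irradiated libraries; matches on either strand are in capitals. Cox20 (chr1:178319003-178319152, plus strand) holds an ETS match, read on the opposite strand, ahead of a YY1 match. Ndufa5 (chr6:24527691-24527840, minus strand) holds 1 NRF1 match close to the start. Ndufa5 and Atp5j each have another listed start whose 150-base window holds no match and is not shown. Ndufb4 (chr16:37654369-37654518, minus strand), a membrane arm subunit with a difference of −0.43 (adjusted p = 0.205) that was chosen for its promoter after its values were seen, holds 2. Atp5j (chr16:84834977-84835126, minus strand) holds a YY1 match and then an ETS match. The windows of Ndufb3, Ndufc1 and Atp5j2, also lower in all irradiated libraries, hold no match and are not shown. These coordinates are of GRCm38.p6 and not of the build of the expression tables.
Cox20: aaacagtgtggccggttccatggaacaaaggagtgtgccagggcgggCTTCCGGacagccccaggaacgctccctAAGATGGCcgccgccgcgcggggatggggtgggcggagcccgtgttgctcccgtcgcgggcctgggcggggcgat
Ndufa5: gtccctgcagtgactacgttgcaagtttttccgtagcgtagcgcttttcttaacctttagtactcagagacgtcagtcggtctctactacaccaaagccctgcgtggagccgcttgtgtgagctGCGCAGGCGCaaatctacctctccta
Ndufb4: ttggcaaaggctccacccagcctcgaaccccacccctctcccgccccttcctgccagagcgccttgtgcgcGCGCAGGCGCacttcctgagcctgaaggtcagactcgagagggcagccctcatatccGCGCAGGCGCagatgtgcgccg
Atp5j: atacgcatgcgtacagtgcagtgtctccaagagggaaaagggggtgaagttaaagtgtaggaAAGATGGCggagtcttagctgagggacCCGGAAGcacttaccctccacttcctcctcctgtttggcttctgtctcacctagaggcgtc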

How the data were processed

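Each library has a deposited table of genes with FPKM and mean read coverage, per the file headers. GRCm39, STAR 2.7.6a, fastp and DESeq2 are listed, with no role or order, per the submitters' processing notes. How the authors computed the deposited FPKM, and the coverage signal deposited beside it, is not given in the sources used here. Depth could be read only through the ratio of coverage to FPKM, whose most frequent value is a constant of each library. That reading is an assumption about how both were computed.

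Rows with a gene name were kept and FPKM summed per gene. limma 3.58.1 (R 4.3.3, trend and robust) was fitted to log2(FPKM + 1) over the 13908 genes whose mean reached 1 FPKM, 3 control against 3 irradiated libraries, two-sided, with Benjamini-Hochberg adjustment over all genes and a call at an adjusted p under 0.05. Differences on this scale understate those of low genes. The fit was tested on simulated data. Lists were described by counts and medians only. An exact permutation test of 3 against 3 cannot go below 0.1 and was not used.

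The genes named are the called member, all complex IV assembly factors in the prefixes, up to 3 members of smallest p per complex and role with a mean of at least 2 FPKM, the most abundant subunit of each complex, the muscle and fat isoforms with their partners, Ndufa4, Ndufa4l2 and Cox7a2l, up to 2 genes per list, and overlapping genes. The members and the 17 lists (127 of 139 genes matched) were chosen with earlier results of these data known. The mitochondrially encoded subunits other than ND1 and ND6, and protein sequences, were not used here. Pairing by replicate number was checked through the correlation of same-numbered deviations. Besides 13 other settings, 2 more (coverage in place of FPKM, and leaving out control 2 and irradiated 2 together) were chosen after seeing the data.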

Additional observations from a re-analysis of the deposited data

How the results depend on the processing

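Of the values of single genes under other settings, 556 kept direction and side of the threshold, 15 changed sign and 8 lost a call. Of the counts of calls and the list medians, 121 stayed alike, 18 had fewer calls, 3 had more calls, 3 moved and 5 changed sign. Against 25 genes called over the whole table, 13 were called after scaling to a common sum (7 higher, 6 lower), 12 with median-ratio scaling, 15 by coverage level, 38 with a mean of at least 5 FPKM and 9 without both control 2 and irradiated 2 (9 higher, 0 lower). None was called by limma with no filter (3531 at an unadjusted p under 0.05) or with the replicate block (1623). Leaving out single libraries gave 0 to 116. Among members the count was 0 by coverage level (27 at an unadjusted p under 0.05), with no filter (22), with the replicate block (11) and without both libraries (3), and 0 to 1 with single libraries left out; the lost call was Cox20, whose log2 difference was −1.25 with no filter (adjusted p = 0.149), −1.25 with the replicate block (adjusted p = 0.282) and −1.09 without both libraries (adjusted p = 0.154). The adjusted p of Cox20 over all alternatives ranged from 0.0243 to 0.359. Same-numbered libraries did not deviate together (r = −0.17, −0.54 and −0.28 over genes), so the numbers were not taken as pairs. The complex IV assembly median was −0.0809 after scaling to a common sum and −0.30 with a mean of at least 5 FPKM, and the complex V structural median was −0.0882 without both libraries. For complex IV, the structural minus assembly median (−0.04) was 0.0566 with a mean of at least 5 FPKM, 0.0485 without both libraries, and −0.13 to 0.0339 with single libraries left out. After scaling to a common sum, 89 of 102 members were negative (97 without it). Of the genes named by the rule, those that changed sign were Atp5b (0.0821), Sdha (0.0125) and Cox8a (0.0005). Without both libraries 74 of 102 members were negative, and the named genes that changed sign were Atp5b (0.14), Cox6a2 (0.42), Cox7a1 (0.40), Cox7a2 (0.0415), Sdha (0.0337) and Sdhd (0.0563). With single libraries left out, Atp5b ranged from −0.10 to 0.0468, Cox10 from −0.0759 to 0.0602, Cox11 from −0.0048 to 0.13 and Cox7a1 from −0.82 to 0.19. The cause of these shifts was not tested. Read counts were not used here, so the precision that depth gives to low genes such as Ndufaf5 is known only from the spread of 3 libraries a group.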
